A study of Mus musculus with 6 samples.

Results

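The cadherin and protocadherin genes of the deposited table were described in sorted muscle and epithelial cells of the mouse embryo's trachea. Members were taken by symbol alone: every numbered Cdh gene, Cdhr1 to Cdhr9, Fat1 to Fat4, Dchs1 and Dchs2, and every gene whose symbol begins with Pcdh. The rule found 103 of 23478 genes, and no expression value entered it. Of these, 44 lie outside the protocadherin clusters and 59 belong to the clustered Pcdha, Pcdhb and Pcdhg genes, which were kept apart. The series is about Wnt signals and ion channels in the making of tracheal cartilage and muscle. Tracheas were taken at embryonic day 13.5 from embryos of genotype Bmp4 f/f; gamma SMA eGFP, that is, with Bmp4 flanked by loxP sites and with eGFP reporting the gamma form of smooth muscle actin. All 6 libraries are labelled control and share this genotype, and no Cre is named. Cells stained with an Epcam antibody were sorted into muscle (3 libraries) and epithelium (3 libraries); Epcam is a surface protein of epithelial cells, and the reporter labels cells that transcribe a smooth muscle actin gene, whichever type they are. Whether the libraries came from separate embryos or litters, or from pooled embryos, is not given in the labels, so the p-values measure only the spread between these libraries, which may be technical.

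Cadherins are calcium-dependent adhesion proteins. Classical cadherins bind the same cadherin on the neighbouring cell and hold on to actin inside the cell through beta-, p120- and alpha-catenin, forming the adherens junction that binds an epithelium together. Type I and type II classical cadherins differ in the residues that dock one molecule to the next, and cells with different cadherins tend to sort apart. The giant cadherins Fat4 and Dchs1 bind each other and pass on planar polarity, while protocadherins lack the catenin tail. The clustered protocadherins are transcribed from arrays of alternative first exons (Pcdha and Pcdhg) or of single-exon genes (Pcdhb) and give single neurons their surface identity. In an embryonic airway the epithelial tube is known for E-cadherin, and the mesenchyme around it for N-cadherin and cadherin-11.

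Total counts ran from 17686605 to 49352790 in muscle and from 11847432 to 54848820 in epithelium. The sorted cells were checked against their markers. The summed level of 10 smooth muscle markers was 4256 to 19063 CPM (counts scaled to a common library total) in muscle and 49.6 to 122 in epithelium, and that of 10 airway epithelium markers was 15.9 to 28.0 in muscle and 3246 to 4350 in epithelium. The lowest smooth muscle sum in muscle was that of muscle 2, and the highest in epithelium that of epithelium 2. Of 8 cartilage markers 2 were higher in muscle, beside 6.58% of all genes. The sum of the 8 was 661 to 1143 CPM in muscle and 235 to 494 in epithelium. The part of cartilage cells in the muscle values was not tested. Mesothelial, erythroid and immune markers summed to at most 46.4 CPM in any library. Of the 7 erythroid markers, 4 haemoglobin genes had 0 counts in every library. The erythroid sum thus rests on the others and does not show how much blood was present. Libraries differed in counts on genes that neither tissue should transcribe. Over 1456 olfactory and vomeronasal receptor genes the mean level per gene was 0.535 CPM in muscle 2, 0.988 in epithelium 2 and 0.414 in epithelium 3, against 0.00508 to 0.031 in the other 3 libraries. A member was called detected in a group when it lay above the 95th percentile of those receptor genes in all 3 libraries. That percentile was 0.15, 1.96 and 0.10 CPM in muscle 1 to 3 and 0, 3.54 and 1.43 CPM in epithelium 1 to 3. Outside the clusters, 28 of 44 members were detected in both groups, 3 in muscle alone, 4 in epithelium alone and 9 in neither. With cutoffs this unequal, the counts do not show in which tissue a low member is expressed. Cdh23 and Cdhr3 counted as muscle alone although their mean CPM was higher in epithelium, and Pcdh15 counted as both. Here CPM are scaled between libraries by the trimmed mean of M-values, and log2 fold changes are muscle over epithelium with their standard errors (SE). A gene was called different when the quasi-likelihood test of edgeR, adjusted over 19375 genes, gave it a p under 0.05. In sorted bulk RNA, fewer cells of a type and less RNA per cell cannot be told apart.

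The delta protocadherins, single genes with conserved cytoplasmic tails, hold members that were higher on opposite sides. The windows below are the 250 bases before the RefSeq transcription start (GRCm38.p6) of 4 members of the delta-2 branch, 5′ to 3′ on the gene's strand. They are shown because Pcdh10 was higher in epithelium while Pcdh18 and Pcdh19 were higher in muscle and Pcdh17 passed no threshold. Capitals mark GGGCGG and CCAAT, searched on both strands, so that they also read CCGCCC or ATTGG. The windows lie at chr3:45378148-45378397 (plus strand, Pcdh10), chr14:84443313-84443562 (plus, Pcdh17), chr3:49757317-49757566 (minus, Pcdh18) and chrX:133688994-133689243 (minus, Pcdh19).
Pcdh10: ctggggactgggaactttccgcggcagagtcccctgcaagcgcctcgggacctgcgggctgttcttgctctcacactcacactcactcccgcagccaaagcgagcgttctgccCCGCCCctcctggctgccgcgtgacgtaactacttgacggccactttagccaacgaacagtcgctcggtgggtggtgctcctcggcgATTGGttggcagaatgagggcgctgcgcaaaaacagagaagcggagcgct
Pcdh17: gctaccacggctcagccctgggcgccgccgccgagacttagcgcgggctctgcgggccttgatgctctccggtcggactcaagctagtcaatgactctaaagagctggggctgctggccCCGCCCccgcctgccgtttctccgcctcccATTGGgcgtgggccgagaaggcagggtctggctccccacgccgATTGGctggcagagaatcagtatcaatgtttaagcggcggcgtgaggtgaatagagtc
Pcdh18: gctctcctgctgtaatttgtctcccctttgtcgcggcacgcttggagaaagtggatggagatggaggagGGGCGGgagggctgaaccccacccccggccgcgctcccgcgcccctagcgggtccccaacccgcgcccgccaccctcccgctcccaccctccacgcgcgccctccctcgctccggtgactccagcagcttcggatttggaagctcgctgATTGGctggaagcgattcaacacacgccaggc
Pcdh19: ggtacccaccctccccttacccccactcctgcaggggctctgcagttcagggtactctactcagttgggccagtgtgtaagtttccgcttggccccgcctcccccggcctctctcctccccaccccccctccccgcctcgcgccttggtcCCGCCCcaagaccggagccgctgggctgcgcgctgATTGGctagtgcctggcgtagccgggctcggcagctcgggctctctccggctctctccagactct
Each of the 4 windows holds both motifs: GGGCGG begins 100 to 181 bases and CCAAT 32 to 101 bases before the start, and Pcdh17 has 2 CCAAT matches. Over 27025 mouse genes with such a window, 35.4% hold GGGCGG, 37.5% CCAAT and 12.5% both. RefSeq windows were matched for 30 members outside the clusters, of which 9 hold GGGCGG, 16 CCAAT and 5 both (these 4 and Cdh8). Pcdh8, also of the delta-2 branch but not shown, holds CCAAT without GGGCGG, so the pair is not shared by the whole branch. The E-box CAGGTG, a sequence bound by Snail and Zeb repressors, was found in 4 of the 30 (Cdh7, Cdhr1, Fat1 and Pcdh15) against 19.4% of all windows. It was found in none of the 8 matched members among the 13 that differed between the groups. The others, Cdh1, Cdh11, Cdh13, Dchs1 and Pcdh11x, had no RefSeq window and were not searched. Beside 19.4% of all windows, 8 windows are too few to show a lack of the motif. These motifs were chosen with the expression values known. The same pair of motifs was thus present on both sides of the comparison, and its letters describe the windows only.

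Outside the clusters, 11 members were higher in muscle and 2 in epithelium. The muscle set was Cdh6, Cdh8, Cdh11, Cdh13, Dchs1, Fat4, Pcdh9, Pcdh11x, Pcdh18, Pcdh19 and Pcdh20, and the epithelial pair was Cdh1 and Pcdh10. Over all tested genes 10.7% were called, 6.58% higher in muscle and 4.11% higher in epithelium, so the 11 of 44 stood above the muscle background and the 2 of 44 near the epithelial one. The groups did not overlap for 17 of the 44, with muscle above in 12 and epithelium above in 5, while this held for 26.9% of all genes. The median fold change of the 44 was 0.16 on the log2 scale, against -0.10 for all genes. Under scaling by library totals the median of all genes moved to -0.33 and that of the 44 to -0.12, so the members' median changed sign but stayed above that of all genes. With that scaling 6 members were higher in muscle and 2 in epithelium, beside 5.37% and 7.43% of all genes. Muscle 2 and epithelium 2 carry the earlier of what were read as 2 dates in the header identifiers. Within the 4 libraries with the later date, 10 members were higher in muscle and 5 in epithelium, beside 10.7% and 6.93% of all genes tested there. Without the 3 libraries with the most receptor counts, which leaves 1 epithelium library, the counts were 14 and 5, beside 8.56% and 7.02%. DESeq2 called 12 higher in muscle and 4 in epithelium, beside 9.47% and 7.83% of all genes, and limma-voom 12 and 4, beside 8.22% and 4.62%.

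**Figure D1:**
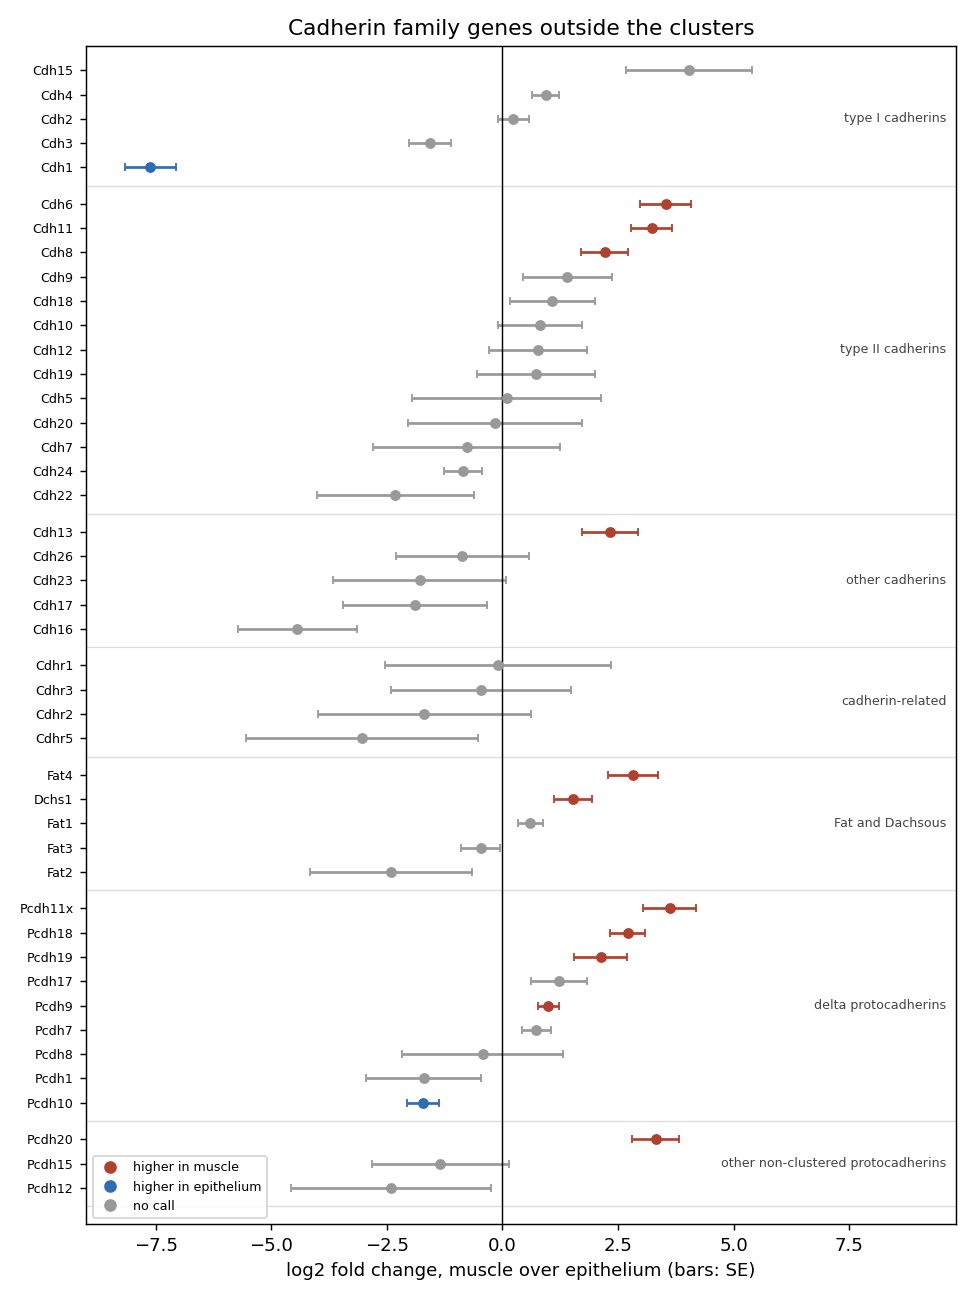
Log2 fold change of muscle over epithelium (horizontal axis) for the 44 members outside the clusters, grouped by class; points are edgeR estimates and bars SE over 3 libraries per group. Cdh1 lies far to the left at -7.61, while 11 members lie to the right of 0 and past the threshold.

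Among the 5 type I classical cadherins, edgeR called Cdh1 alone, DESeq2 also Cdh3 and Cdh15, and limma-voom also Cdh3. E-cadherin, its product, is the adhesion molecule of epithelial junctions. Its level was 2.28, 6.34 and 2.02 CPM in muscle 1 to 3 and 734, 631 and 687 CPM in epithelium 1 to 3. The groups were far apart and muscle 2 was the highest muscle library. The log2 fold change was -7.61 ± 0.54 (SE, n = 3 and 3; edgeR adjusted p = 0.000117). Cdh3, which encodes P-cadherin of basal epithelial cells, lies just upstream of Cdh1 in the same direction: Cdh3 spans chr8:106510891-106557297 and Cdh1 chr8:106603351-106670246 (mm10, GENCODE vM21, both on the plus strand). Cdh3 read 13.1, 42.4 and 27.4 CPM in muscle and 122, 56.0 and 66.2 CPM in epithelium. Every epithelium library was above every muscle library, but muscle 2 came close to epithelium 2. The difference of -1.56 ± 0.45 missed the threshold (edgeR adjusted p = 0.062), and without muscle 2 it passed at an adjusted p of 0.017. Per kilobase of exon the ratio of Cdh1 to Cdh3 was 0.167, 0.143 and 0.0707 in muscle and 5.79, 10.8 and 9.95 in epithelium, so the neighbours exchanged rank between the tissues.

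N-cadherin, the product of Cdh2, is the classical cadherin of many mesenchymal and neural cells. Cdh2 read 153, 92.4 and 119 CPM in muscle and 60.1, 115 and 134 CPM in epithelium, and the groups overlapped. The difference was 0.24 ± 0.34 on the log2 scale, with a 95% interval from -0.52 to 1.00 (edgeR adjusted p = 0.87), so a change of 2-fold or more towards epithelium lies outside the interval. Markers of nerve and glia, which also use N-cadherin, summed to 41.1 to 74.9 CPM in muscle and 122 to 147 in epithelium. Of that list edgeR called Erbb3 alone, at 8.62 to 16.1 CPM in muscle and 65.4 to 118 CPM in epithelium, while limma-voom called 1 marker in each direction. Stmn2 of nerve cells read 12.6 to 16.4 CPM in muscle and 1.80 to 8.15 in epithelium. Of the 9 markers tested, only Erbb3 and Stmn2 did not overlap between the groups, 1 in each direction. The higher epithelial sum thus does not describe the list as a whole. The part of such cells in the Cdh2 level was not tested. Cdh4, the gene of R-cadherin, read 30.8, 16.8 and 25.5 CPM in muscle and 12.4, 13.4 and 12.3 CPM in epithelium without overlap, at 0.94 ± 0.29 (adjusted p = 0.082). Cdh4 was named after its values were seen.

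Cdh15, the gene of M-cadherin in skeletal muscle precursors, rested on 1 library. It read 49.9 CPM in muscle 1, 1.60 in muscle 2 and 4.20 in muscle 3, and 0.15, 1.87 and 1.46 CPM in epithelium. Muscle 2 lay within the epithelial range, and the difference of 4.03 ± 1.37 was not called (edgeR adjusted p = 0.11). The skeletal factor gene Myog ran in the same order over the muscle libraries, at 245, 1.20 and 17.3 CPM, as did Myod1 at 62.1, 0.50 and 3.82 CPM. Of the other listed skeletal markers, Myf5, Actn3, Tnnt3 and Tmem8c shared this order, though Tnnt3 was nearly flat at 6.39, 4.94 and 6.27 CPM. The rest did not: Pax7 and Ckm were highest in muscle 2, and Myh3 and Myh8 were lowest in muscle 3. The order thus does not describe the list as a whole. The summed skeletal marker list was 410 CPM in muscle 1 against 33.3 and 44.9 in muscle 2 and 3 and 3.42 to 41.2 in epithelium. The part of skeletal cells in the Cdh15 value was not tested.

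Of 13 type II classical cadherins, Cdh6, Cdh8 and Cdh11 were higher in muscle, beside 6.58% of all genes, and none was higher in epithelium by edgeR, DESeq2 or limma-voom, nor at an unadjusted edgeR p under 0.05. Cadherin-11, first known from osteoblasts, is a mesenchymal cadherin. Cdh11 (chr8:102632095-102785642, minus strand) read 475, 422 and 558 CPM in muscle and 39.6, 88.2 and 27.0 CPM in epithelium. It was high in all 3 muscle libraries, and the highest epithelial value was again that of epithelium 2, the library with the most receptor counts. The difference was 3.23 ± 0.44 (edgeR adjusted p = 0.0022). Cdh6, the gene of K-cadherin of kidney and neural crest, read 52.0, 32.9 and 50.5 CPM in muscle and 2.68, 7.62 and 1.65 CPM in epithelium, at 3.53 ± 0.55 (adjusted p = 0.0040). Cdh8, best known from neurons, was lower in level at 24.3, 12.7 and 21.3 CPM in muscle and 1.90, 6.55 and 4.24 CPM in epithelium, at 2.21 ± 0.51 (adjusted p = 0.024), a call lost in 5 of 16 alternative fits. All 3 genes showed the same order of groups without overlap. Cdh24 read 6.54, 14.6 and 19.9 CPM in muscle and 30.7, 23.5 and 19.9 CPM in epithelium, at -0.85 ± 0.40 (adjusted p = 0.27). The endothelial Cdh5, the gene of VE-cadherin, was near the receptor level: 0.076, 3.94 and 1.87 CPM in muscle and 0, 4.54 and 1.01 CPM in epithelium. Endothelial markers summed to 85.4 to 123 CPM in muscle and 15.1 to 81.5 in epithelium, and Pecam1 read 0.84 to 6.42 CPM in muscle and 0.07 to 6.48 in epithelium. Of the 11 markers, 4 (Esam, Tek, Erg and Sox18) were higher in each muscle library than in any epithelium library, beside 16.4% of all genes. Esam alone was called (edgeR adjusted p = 0.036), beside 6.58% of all genes higher in muscle. The part of endothelial cells in these values was not tested.

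The classical cadherins were then set beside each other per kilobase of exon, as shares of the summed level of all 18 type I and type II genes. In muscle Cdh11 held 52.3% ± 5.0 (SD, n = 3), Cdh2 14.4% ± 2.39, Cdh3 6.32% ± 3.96 and Cdh1 0.79% ± 0.62. Cdh15 held 13.8% in muscle 1 but 0.53% and 1.19% in the other two. In epithelium Cdh1 held 74.2% ± 2.98, Cdh3 9.10% ± 3.49, Cdh2 6.42% ± 2.58, Cdh24 3.50% ± 0.63 and Cdh11 2.91% ± 1.91. In each tissue the same gene thus held the largest share in all 3 libraries, a type II gene in muscle and a type I gene in epithelium. The neighbours below the first place, Cdh3 and Cdh2 in epithelium, did not separate beyond their spread. The ratio of Cdh11 to Cdh2 per kilobase was 2.80, 4.14 and 4.25 in muscle and 0.597, 0.697 and 0.182 in epithelium.

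**Figure D2:**
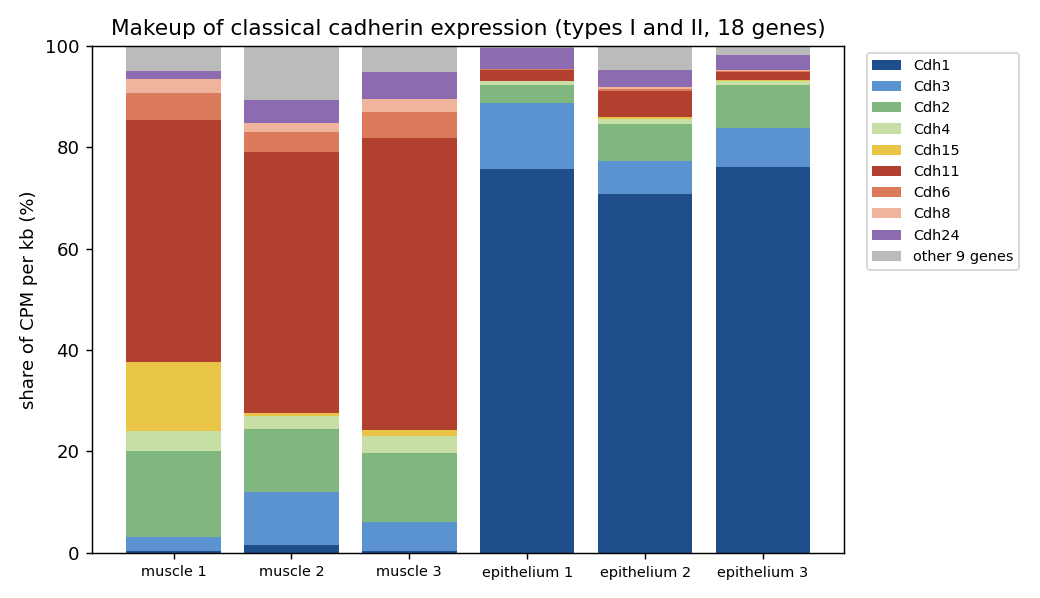
Share of each classical cadherin gene (percent of the summed CPM per kilobase of 18 genes, vertical axis) in the 6 libraries, stacked. Cdh11 fills 47.8% to 57.7% of the muscle bars, and Cdh1 fills 70.8% to 76.2% of the epithelium bars.

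Of the 5 other cadherins with unusual tails, Cdh13 was higher in muscle. T-cadherin, its product, is held on the membrane by a lipid anchor and has no cytoplasmic tail. Cdh13 read 12.4, 18.8 and 15.0 CPM in muscle and 1.19, 5.68 and 2.40 CPM in epithelium, at 2.33 ± 0.61 (edgeR adjusted p = 0.041). The groups did not overlap, but the call was lost in 6 of 16 alternative fits. Cdh16, whose product Ksp-cadherin is known from kidney tubules, was epithelial in pattern. It read 0.076, 3.00 and 0.051 CPM in muscle, which are 2, 60 and 2 counts, and 20.9, 24.4 and 19.9 CPM in epithelium. Nearly all muscle counts came from muscle 2, the muscle library with the most receptor counts. The fitted difference of -4.43 ± 1.28 missed the threshold (adjusted p = 0.063) and passed it without muscle 2 (adjusted p = 3.4e-05). The hair cell tip link gene Cdh23 read 0.49, 6.79 and 0.23 CPM in muscle and 0, 20.3 and 5.63 CPM in epithelium. It followed the receptor counts by library, as did its tip link partner Pcdh15, at 0.72, 13.7 and 0.58 CPM in muscle and 0.30, 28.9 and 8.98 CPM in epithelium.

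The 4 cadherin-related (Cdhr) genes, known from photoreceptors, microvilli and cilia, gave no call by edgeR, DESeq2 or limma-voom, and none had an unadjusted edgeR p under 0.05. Cdhr2, a brush border gene, read 0, 4.59 and 0.051 CPM in muscle and 0, 11.4 and 3.49 CPM in epithelium. Cdhr3, an airway ciliated cell gene, read 0.76, 4.29 and 0.20 CPM in muscle and 0, 4.54 and 2.74 CPM in epithelium. Both were high in the libraries with the most receptor counts in either group. The 9 members detected in neither group were Cdh5, Cdh7, Cdh15, Cdh20, Cdh22, Cdhr1, Cdhr2, Cdhr5 and Pcdh8. Cdhr4 and Dchs2 were not analysed here.

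In the Fat and Dachsous class the ligand and receptor pair Dchs1 and Fat4 was higher in muscle. Fat4 read 170, 167 and 227 CPM in muscle and 10.9, 51.7 and 17.6 CPM in epithelium. Its lowest muscle value was more than 3 times its highest epithelial value, and the difference was 2.82 ± 0.54 (edgeR adjusted p = 0.010). Dchs1 read 150, 108 and 224 CPM in muscle and 72.8, 66.2 and 27.5 CPM in epithelium, at 1.53 ± 0.41 (adjusted p = 0.046). Its groups did not overlap either, but 9 of 16 alternative fits lost the Dchs1 call and none lost that of Fat4. Fat1, which acts on actin at cell edges, was abundant in both: 191, 140 and 235 CPM in muscle and 145, 119 and 108 CPM in epithelium, with overlap, at 0.61 ± 0.27 (adjusted p = 0.23). Per kilobase the ratio of Fat1 to Fat4 was 1.23, 0.918 and 1.13 in muscle and 14.6, 2.52 and 6.69 in epithelium. Near-equal levels in muscle thus stood against an excess of Fat1 in every epithelium library. The ratio of Fat4 to Dchs1 was 0.731, 0.997 and 0.654 in muscle and 0.0964, 0.503 and 0.413 in epithelium. Fat3 overlapped, at -0.47 ± 0.42 (adjusted p = 0.71). Fat2 read 0.076, 5.74 and 0 CPM in muscle and 3.25, 22.3 and 5.30 CPM in epithelium and was not called either.

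**Figure D3:**
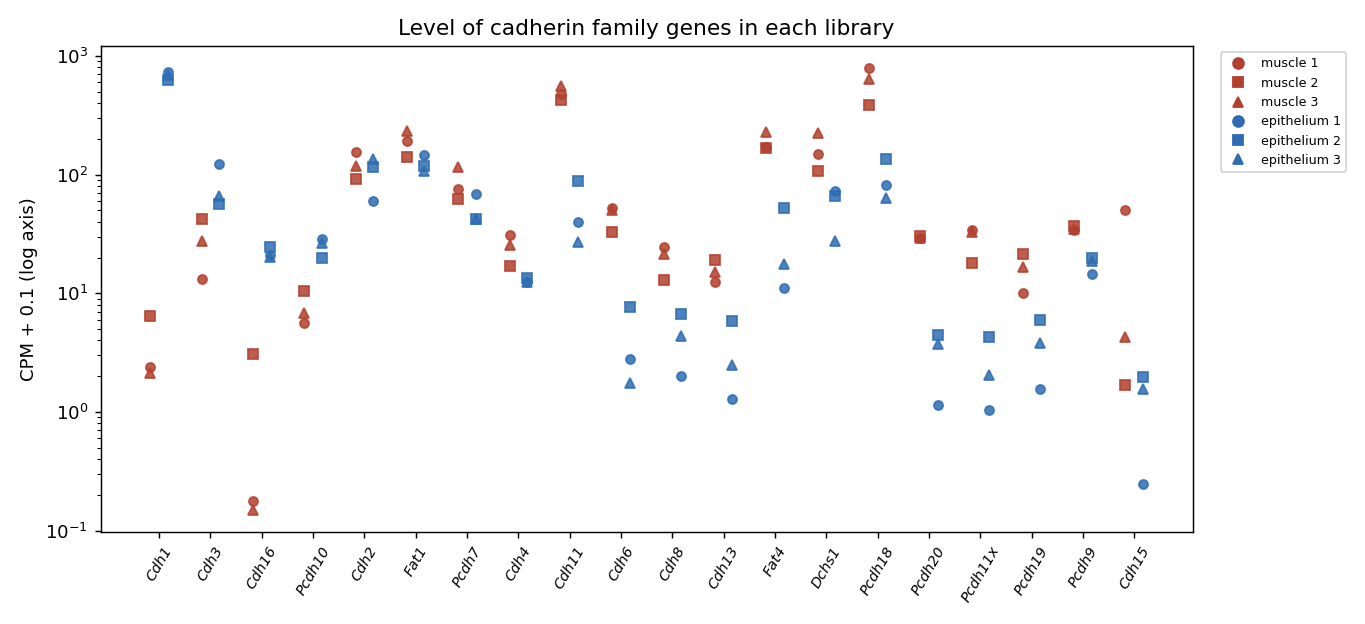
Level of 20 members outside the clusters in each library (CPM + 0.1, log axis); colour marks the tissue and shape the replicate. Muscle points of Cdh11, Fat4 and Pcdh18 lie above all their epithelium points, those of Cdh2 overlap, and a single muscle library carries Cdh15.

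Of the 9 delta protocadherins, 4 were higher in muscle and 1 in epithelium, beside 6.58% and 4.11% of all genes. Pcdh18 (chr3:49743296-49757325, minus strand) was the member outside the clusters with the most RNA per length in muscle, at 113 ± 37.9 CPM per kilobase (SD, n = 3), above Cdh11 at 54.5 ± 7.70. In epithelium it stood at 17.4 ± 6.84 CPM per kilobase, next to Cdh3 at 18.5 ± 8.04, from which it did not separate, and below Cdh1 at 150 ± 11.4. By library Pcdh18 read 790, 388 and 645 CPM in muscle and 82.1, 134 and 63.1 CPM in epithelium, at 2.71 ± 0.38 (edgeR adjusted p = 0.0026). Muscle 2 was the lowest muscle library and still above every epithelium library. Pcdh19, of the same delta-2 branch and known from female-limited epilepsy, read 9.92, 21.3 and 16.6 CPM in muscle and 1.47, 5.88 and 3.68 CPM in epithelium, at 2.13 ± 0.58 (adjusted p = 0.047), and 8 of 16 alternative fits lost the call.

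Pcdh10 was the delta-2 gene with the opposite order. It read 5.51, 10.4 and 6.67 CPM in muscle and 28.6, 19.8 and 26.2 CPM in epithelium, at -1.72 ± 0.34 (edgeR adjusted p = 0.013). The groups did not overlap, and the call was lost in 1 of 16 alternatives, without epithelium 3 (adjusted p = 0.059). Pcdh17 read 24.1, 24.7 and 18.4 CPM in muscle and 2.40, 18.6 and 7.96 CPM in epithelium, with overlap and no call (adjusted p = 0.31). Among the delta-1 genes, Pcdh11x of the X chromosome read 33.8, 17.8 and 33.0 CPM in muscle and 0.95, 4.14 and 1.95 CPM in epithelium, at 3.62 ± 0.57 (adjusted p = 0.0042). Pcdh9 differed by less but evenly: 34.1, 36.7 and 34.6 CPM in muscle and 14.4, 19.8 and 18.6 CPM in epithelium, at 1.00 ± 0.23 (adjusted p = 0.026). Its replicates lay close together in both groups, and 6 of 16 alternative fits lost the call, one of them the fit without the 3 libraries with the most receptor counts (adjusted p = 0.12). Pcdh7 read 75.0, 62.3 and 116 CPM in muscle and 68.2, 42.4 and 41.9 CPM in epithelium and was not called (adjusted p = 0.22).

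Of the 3 remaining single protocadherins, Pcdh20 was higher in muscle. It read 28.9, 30.1 and 29.3 CPM in muscle and 1.04, 4.34 and 3.61 CPM in epithelium, at 3.31 ± 0.51 (edgeR adjusted p = 0.0038). Its muscle libraries were nearly equal. Pcdh12, known from endothelium, read 0.30, 1.15 and 0 CPM in muscle and 0.074, 6.01 and 1.61 CPM in epithelium, within each tissue in the order of the receptor counts.

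The few clustered genes called different were all higher in muscle. Of the 59 clustered genes, 49 passed the filter on low counts: 6 of 15 Pcdha, 21 of 22 Pcdhb and all 22 Pcdhg genes. edgeR called 6 higher in muscle (Pcdhb6, Pcdhb7, Pcdhb17, Pcdhb20, Pcdhga10 and Pcdhgc3) against 6.58% of all genes, and none higher in epithelium. By cluster the calls were 0 of 6 Pcdha, 4 of 21 Pcdhb and 2 of 22 Pcdhg genes, the last near the share of all genes. None of the 49 was higher in epithelium at an unadjusted edgeR p under 0.05 or by DESeq2 or limma-voom. At an unadjusted edgeR p under 0.05, 22 of the 49 were higher in muscle, as were 2613 of all 19375 genes. Among the 49, the groups did not overlap for 28, with muscle above in 27, against 26.9% of all genes without overlap and 16.4% with muscle above. These counts leave out the 10 genes too low to test, so they describe the tested genes only. Genes low in epithelium, such as Pcdhb6 and Pcdhac2, passed that filter only through muscle, the group where they are high. Their place in these counts is not independent of that. The median log2 fold change of the 49 was 1.28. It was 1.84 for Pcdhb and 1.07 for Pcdhg, and under scaling by library totals it was 1.55 and 0.84. For the 6 Pcdha genes it was 0.41 and -0.01, a change of sign. With the later header date alone 12 clustered genes were higher in muscle, beside 10.7% of all genes tested there. The count was 1 without muscle 3, 2 without epithelium 3, 3 without muscle 1 and 11 without muscle 2. The shares of all genes higher in muscle in these 4 fits were 3.48%, 2.82%, 3.94% and 8.25%. Genes of a cluster are near-copies, and Pcdha and Pcdhg transcripts end in shared exons. How reads of such exons were assigned is not given in the sources used here, so the split among genes of 1 cluster is uncertain and they are not independent.

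**Figure D4:**
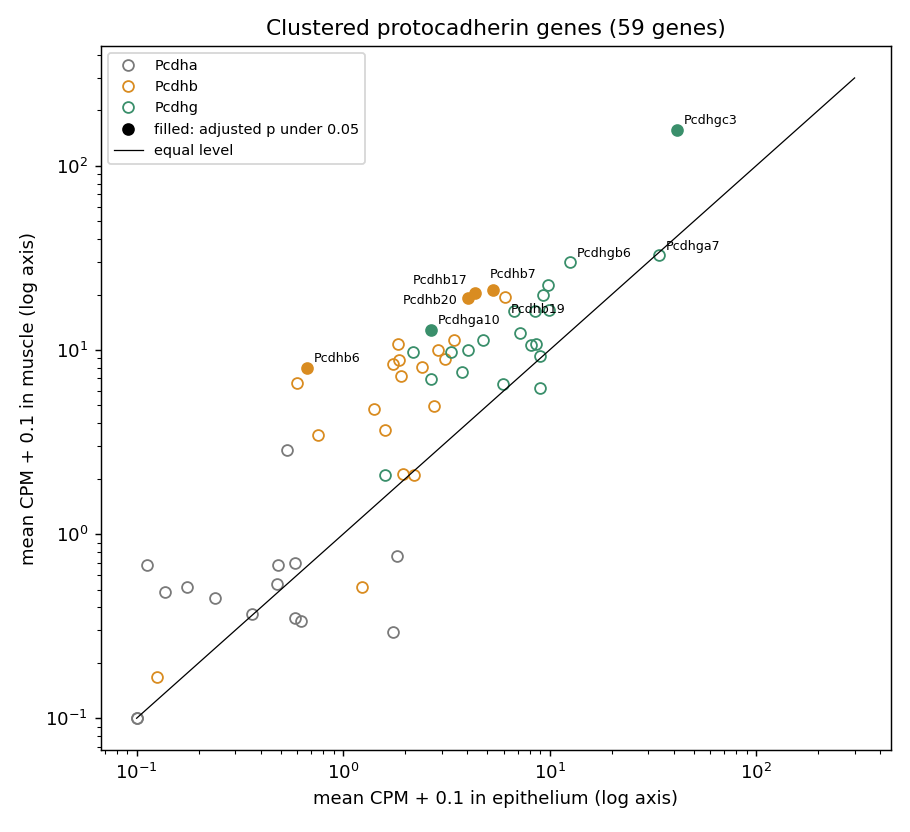
Mean CPM + 0.1 of the 59 clustered protocadherin genes in muscle (vertical, log axis) and epithelium (horizontal, log axis), 3 libraries each; filled points have an adjusted p under 0.05. Most Pcdhb and Pcdhg points lie above the line of equal level, Pcdhga7 lies on it, and Pcdha points stay at the low end.

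Each cluster was also summed, though reads of shared exons may enter such a sum more than once or not at all. The Pcdhg sum was 515, 318 and 472 CPM in muscle and 244, 171 and 192 CPM in epithelium, a difference of the mean log2 sums of 1.09. The Pcdhb sum was 203, 144 and 216 CPM in muscle and 24.3, 69.4 and 56.7 CPM in epithelium, a difference of the mean log2 sums of 2.02. For both, every muscle library was above every epithelium library. The Pcdha sum was 5.36, 10.9 and 6.90 CPM in muscle and 1.54, 12.7 and 5.52 CPM in epithelium. The Pcdha groups overlapped, each was highest in its replicate 2, and the difference of the mean log2 sums, 0.63, turned to -0.18 without epithelium 1. Pcdha1 read 0.076, 0.40 and 0.10 CPM in muscle and 0, 4.81 and 0.15 CPM in epithelium, and Pcdha8 0.076, 1.90 and 0 CPM in muscle and 0, 3.61 and 1.54 CPM in epithelium, so epithelium 2 was the highest library for both. Pcdha4 and Pcdha4-g had 0 counts in all libraries. The counting rule is not given, so these zeros do not show that RNA of Pcdha4 was absent.

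**Figure D5:**
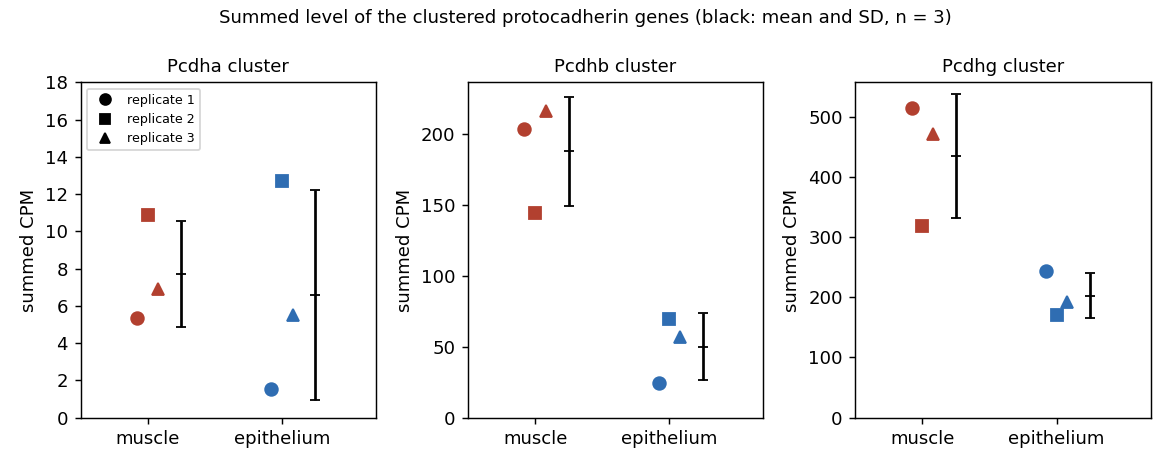
Summed CPM of the Pcdha (15 genes), Pcdhb (22) and Pcdhg (22) genes in each library; black bars are mean and SD over 3 libraries per tissue, and each panel has its own vertical axis from 0. Muscle lies above epithelium for Pcdhb and Pcdhg, and the tissues overlap for Pcdha.

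Pcdhgc3, one of the C-type genes that are known to be used broadly and not chosen at random, led the clustered genes. It read 177, 114 and 180 CPM in muscle and 55.2, 33.5 and 34.9 CPM in epithelium, at 1.93 ± 0.30 (edgeR adjusted p = 0.0042). It held 36.1% ± 1.87 (SD, n = 3) of the Pcdhg sum in muscle and 20.1% ± 2.26 in epithelium. Pcdhga7 had the opposite share, 7.51% ± 0.25 in muscle and 16.8% ± 1.75 in epithelium. Its level did not separate the tissues, at 39.2, 24.4 and 34.1 CPM in muscle and 37.6, 32.1 and 31.0 CPM in epithelium, with a difference of -0.04 ± 0.25 and a 95% interval from -0.62 to 0.53 (adjusted p = 0.97). The make-up of the Pcdhg RNA thus differed between the tissues beside its amount, as far as the split of reads allows. Pcdhga10 read 12.3, 11.0 and 15.0 CPM in muscle and 2.97, 1.74 and 2.97 CPM in epithelium, at 2.31 ± 0.50 (adjusted p = 0.019), a call lost in 4 of 16 alternative fits. Pcdhgb6 overlapped by a little, with 39.6, 19.0 and 31.0 CPM in muscle and 19.1, 8.62 and 9.46 CPM in epithelium (adjusted p = 0.081).

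In the Pcdhb cluster, whose genes are single exons with no shared end, 4 of 21 tested genes passed, beside 6.58% of all genes higher in muscle. Pcdhb7 read 21.8, 16.4 and 24.7 CPM in muscle and 3.35, 7.35 and 5.03 CPM in epithelium, at 2.01 ± 0.39 (edgeR adjusted p = 0.011). Pcdhb17 read 17.4, 14.2 and 29.5 CPM in muscle and 2.34, 5.21 and 5.15 CPM in epithelium, at 2.27 ± 0.46 (adjusted p = 0.013). Neither gene overlapped between the tissues. Pcdhb20 read 25.4, 10.1 and 21.4 CPM in muscle and 1.95, 6.68 and 3.19 CPM in epithelium (2.28 ± 0.55, adjusted p = 0.030), and 6 of 16 alternative fits lost the call. Pcdhb6 was low but even, with 8.59, 7.69 and 7.48 CPM in muscle and 0.33, 0.53 and 0.83 CPM in epithelium (3.80 ± 0.83, adjusted p = 0.020), and 3 of 16 fits lost it. Of the abundant Pcdhb genes, Pcdhb19 overlapped and was not called (adjusted p = 0.10). In the Pcdha cluster Pcdhac2, also of the C type, read 1.86, 3.20 and 3.21 CPM in muscle and 0.61, 0.53 and 0.15 CPM in epithelium without overlap, and was not called (2.66 ± 1.49, adjusted p = 0.38). Pcdhac2 was the only Pcdha gene detected in all 3 libraries of a group.

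The partners of cadherins were read from lists, beside 6.58% of all genes higher in muscle and 4.11% higher in epithelium. Of 13 catenins and actin linkers, 3 were higher in muscle and 3 in epithelium. The muscle genes were Vcl, the gene of vinculin, at 2.52 (edgeR adjusted p = 0.0023), Ctnna2, the neural alpha-catenin, at 2.24 (adjusted p = 0.015) and Lima1 at 1.39 (adjusted p = 0.011). The epithelial genes were the p120 family members Arvcf at -2.57 and Pkp4 at -1.16, and Ctnnal1 at -1.73. The core of the junction did not pass: Ctnnb1, the gene of beta-catenin, differed by -0.12 ± 0.29, Ctnna1 by -0.33 ± 0.29 and Ctnnd1, the gene of p120, by 0.26. The catenin gene Jup fell just short of the threshold at -0.95 ± 0.26 (edgeR adjusted p = 0.0501). It read 142, 92.8 and 119 CPM in muscle and 272, 192 and 219 CPM in epithelium, without overlap. DESeq2 and limma-voom each called 3 of the 13 higher in muscle and 4 in epithelium. Of 4 nectin and afadin genes found, Pvrl4 (nectin-4) was higher in epithelium at -4.13 ± 0.76 (adjusted p = 0.0089). Of 8 genes of the Fat and Dachsous pathway, Lix1l at 4.29 ± 0.61 and Wwtr1, the gene of TAZ, at 1.93 ± 0.26 were higher in muscle. Fjx1, a kinase gene of that pathway, was not called at 0.55 (adjusted p = 0.85).

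Transcription factors known to repress E-cadherin and regulators of epithelial identity were read in the same way, again beside 6.58% and 4.11% of all genes. Of 9 repressors, 5 were higher in muscle and 1 in epithelium: Zeb2 at 3.98, Zeb1 at 3.90, Snai2 at 3.79, Snai1 at 3.48 and Tcf4 at 1.08 in muscle, and Tcf3 at -1.83 in epithelium. Of 10 epithelial regulators, 8 were higher in epithelium, among them Ovol2 at -6.90, the splicing regulators Esrp1 at -6.57 and Esrp2 at -6.52, Grhl2 at -6.47, Klf5 at -6.15 and Trp63 at -4.78. The other two were not called: Grhl3 overlapped at 0.44 (adjusted p = 0.56), and Klf4 was higher in each muscle library than in any epithelium library at 1.03 (adjusted p = 0.12). The 10 genes of cadherin processing and trafficking gave no edgeR call and 3 unadjusted p-values under 0.05, beside 4197 such values among all 19375 genes. DESeq2 called 2 of them in each direction and limma-voom none. The 9 known regulators of the protocadherin clusters gave no edgeR or limma-voom call, 4 unadjusted edgeR p-values under 0.05 and 2 DESeq2 calls, both higher in epithelium.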

How the data were processed

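RNA-seq was available for 6 libraries of sorted tracheal cells. Per the labels' protocols, cells were freed with TrypLE, RNA was taken with Trizol, and libraries were made with SMART-Seq v4 and Nextera XT. The submitters' processing notes name Trim Galore, Bowtie2, Cufflinks, DESeq and the build mm10, with no role or order. The authors deposited whole-number counts per gene symbol. The counting rule and any use of strand are not given in the sources used here, so overlapping genes and near-copies are uncertain.

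The members and lists were chosen with earlier results of these data known. Libraries were grouped by their titles. Counts were filtered (filterByExpr by group), scaled by TMM and tested in R 4.3.3 with edgeR 4.0.16 (robust quasi-likelihood fit, two-sided, no covariate), with Benjamini-Hochberg adjustment over 19375 genes and a threshold of 0.05. Levels per kilobase used GENCODE vM21 exon lengths. Alternatives included limma-voom (limma 3.58.1) and DESeq2 1.42.0. The script was tested on simulated data. Named outside the clusters were genes past the threshold, the most abundant of each class (2, or 3 in type I, type II and delta), genes without overlap with a log2 fold of at least 1 and an average log2 CPM of at least 2, and Cdh1, Cdh2, Cdh3, Cdh5, Cdh11, Cdh13, Cdh15, Fat4, Dchs1 and Fjx1. In each cluster the 3 most abundant genes and those past the threshold were named, and in each partner list up to 6 past it. Cdh4, Cdh23, Fat2, Fat3, Pcdh12, Pcdh17, Grhl3, Klf4, Jup and the core catenins were named after their values were seen. So were the markers Erbb3, Stmn2, Esam, Tek, Erg, Sox18, Myf5, Actn3, Tnnt3, Tmem8c, Myh3, Myh8, Pax7 and Ckm. Single values in 3 against 3 libraries cannot reach 0.05 by exact permutation, and p-values were taken from the model over all genes.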

Additional observations from a re-analysis of the deposited data

How the results depend on the processing

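Over 16 alternative fits, 7 of the 13 members called outside the clusters (Cdh1, Cdh6, Cdh11, Fat4, Pcdh11x, Pcdh18 and Pcdh20) and 1 of the 6 clustered ones (Pcdhgc3) kept their call in all. The number of members outside the clusters higher in muscle, 11, became 6 with library totals and 5 at an adjusted p under 0.01, and ran from 6 to 11 with a library left out (6 without muscle 1, muscle 3 or epithelium 3). The number higher in epithelium, 2, became 4 with DESeq2 or limma-voom, 5 with the later header date only, 5 without the 3 libraries with the most receptor counts and 1 at an adjusted p under 0.01. It ran from 1 (without epithelium 3) to 5 (without muscle 2) with a library left out. The clustered genes higher in muscle, 6, became 11 with DESeq2, 12 with limma-voom, 12 with the header date as a term or the later date only, 16 with a covariate for receptor counts, 16 without those 3 libraries and 1 at an adjusted p under 0.01. Their range was 1 (without muscle 3) to 11 (without muscle 2), with 3 without muscle 1 and 2 without epithelium 3. Clustered genes higher in epithelium numbered 0 in every fit. The share of all genes higher in muscle, 6.58%, also moved: 3.94% without muscle 1, 3.48% without muscle 3 and 2.82% without epithelium 3. It was 8.25% without muscle 2, 5.37% with library totals and 2.99% at an adjusted p under 0.01. With the header date as a term it was 10.6%, and with the covariate 8.92%. The share higher in epithelium, 4.11%, was 2.96% without epithelium 3 and 4.58% without muscle 2. The difference of mean log2 sums ran for Pcdha from -0.18 (without epithelium 1) to 1.34, for Pcdhb from 1.56 to 2.32 and for Pcdhg from 0.95 to 1.30. The fit without the 3 libraries was chosen after the data were seen, and its lone epithelium library is assumed to vary like the others. A stricter threshold lowers the counts by construction, and the cause of the other shifts was not tested. The calls of Cdh8, Pcdhb20, Pcdhga10, Pcdhb6, Pcdhb7 and Pcdhb17 were lost in 5, 6, 4, 3, 2 and 1 of the 16 fits. Those of Tcf3, Tcf4, Zeb1, Ctnna2, Pkp4 and Lima1 were lost in 5, 5, 3, 3, 3 and 1. Cdh3 and Cdh16 were called in 6 fits each, and Cdh15 by DESeq2 alone. No named call changed direction.

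Libraries share replicate numbers. The deviations of same-numbered libraries correlated at 0.59, 0.73 and -0.57 over 19375 genes for numbers 1, 2 and 3, so the numbers do not show a pairing. Number 2 is also the earlier header date, which only muscle 2 and epithelium 2 carry. For these libraries a shared number and a shared date cannot be told apart. With the replicate block, edgeR called 9 members outside the clusters for muscle, 2 for epithelium and 8 clustered genes for muscle. Over all genes that fit called 8.27% for muscle and 4.21% for epithelium. Counts on receptor genes bound what can be read of low members: 9 outside the clusters did not lie above their 95th percentile in all libraries of either group, Cdh15 among them although it was high in muscle 1.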
